A study of Mus musculus with 6 samples.

Results

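The baseline transcriptome of control cells of an immortalized mouse podocyte line was described from the 3 libraries made after transfection of a scrambled siRNA, a small RNA designed to have no target gene. The genes described were chosen by their level in these same libraries: every protein-coding gene whose mean over the 3 was 1 FPKM or higher was taken, and the genes were ranked by that mean. FPKM counts the sequenced fragments of a gene per kilobase of its length after scaling for sequencing depth, so levels of different genes can be set side by side. Of 21981 protein-coding genes among the 53715 rows of the table, 10562 met this rule (48.1%). Because the same values chose the genes, every level below is a description and carries no test.

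The whole series holds 6 libraries, 3 of scrambled siRNA and 3 of an siRNA that targets Tfeb, a transcription factor of lysosomal genes. The knockdown libraries were not compared here. All cells came from 1 mouse podocyte line of kidney origin with a WT genotype label. The line was expanded at 33 °C in medium with interferon-γ and 10% serum, then differentiated for 10 to 14 days at 37 °C in 5% serum with type I collagen at 12 mg/ml, per the labels' protocols. Nothing in the labels says that replicates 1, 2 and 3 came from separate cultures, so the spread between them may be technical. Tfeb itself was read at 1.80, 2.05 and 2.27 FPKM in replicates 1, 2 and 3.

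Podocytes cover the outer face of the capillaries in the glomerulus, the filter of the kidney. Their interlocking foot processes are held in shape by actin bundles, anchored to the glomerular basement membrane by integrins and joined by the slit diaphragm, a cell junction built around nephrin. Podocyte lines that grow at a permissive temperature and differentiate at a higher one are a common model of this cell, and they are known to keep some of its genes and to lose others.

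The libraries held 20143910 to 20610888 reads assigned to genes, of which 96.4% to 96.6% fell on protein-coding genes and 1.36% to 1.43% on mitochondrial DNA. Between 10557 and 10570 protein-coding genes reached 1 FPKM in each library taken alone, 10341 reached it in all 3, and 221 of the genes described lay below it in at least 1. The median gene described rested on 810 reads per library; 514 rested on fewer than 100 and 4 on fewer than 10. No read was assigned to 4777 protein-coding genes. At the edge of the rule stood Harbi1, Drc1 and Trdmt1 at means of 1.0031, 1.0027 and 1.0023 FPKM. Just outside were Rbm47, Sclt1 and Dact2 at 0.99996, 0.9988 and 0.9986 FPKM. Xist, the RNA of the inactive X chromosome, was read at 28.8, 29.7 and 25.7 FPKM, and the Y-linked genes Ddx3y, Eif2s3y, Uty and Kdm5d had 0 reads in every library. None of the 183 protein-coding genes of the Y chromosome reached 1 FPKM. Xist and the Y-linked genes were chosen after their values were seen.

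The line expressed actin, contractile, matrix and adhesion genes at its highest levels, beside genes of mitochondrial respiration and translation. The median gene stood at 8.61 FPKM (quartiles 3.87 and 19.2). There were 4726 genes at 10 FPKM or more, 368 at 100 or more and 35 at 500 or more. The 100 highest genes held 23.1%, 23.4% and 23.5% of the summed protein-coding FPKM in replicates 1, 2 and 3. The 713 highest genes held 50% of the sum over the mean of the libraries.

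Among the 30 highest genes, 7 were encoded by mitochondrial DNA, including the first, mt-Co1, a core subunit of cytochrome oxidase, which shares 51.1% of its 50-base words with other genes. It stood at 3099, 3354 and 3272 FPKM. The complex I subunit mt-Nd1 followed at 2122 ± 92.0 FPKM and cytochrome b, mt-Cytb, at 1788 ± 89.6 (mean ± SD, n = 3 libraries, as for all such values below). The highest nuclear gene was the translation elongation factor Eef1a1 at 1561 ± 105 FPKM.

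Smooth muscle actin, Acta2, came next and was the highest cytoskeletal gene. It was read at 1501, 1577 and 1463 FPKM, a range of 1.08-fold between libraries. The cytoplasmic actin Actb stood at 825 ± 54.6 FPKM, the tropomyosin Tpm4 at 583 ± 8.90 and vimentin, Vim, an intermediate filament protein, at 506 ± 21.6. Thrombospondin 1, Thbs1, a secreted matricellular protein that binds cells and activates latent TGF-β, was read at 1105, 1240 and 1088 FPKM. It was highest in replicate 2, and the other libraries lay close together. The integrin subunit Itgb1, the shared β chain of most matrix receptors of this cell, stood at 1145 ± 42.8 FPKM.

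Other genes of the first 30 fell into a few roles. Ferritin heavy chain, Fth1, which stores iron, was read at 1256, 1403 and 1591 FPKM. B2m, the light chain of class I histocompatibility molecules, was read at 1420, 1379 and 1308 FPKM. The galectin Lgals1 and the calcium-binding S100a6 stood at 1068 ± 43.2 and 1062 ± 51.3 FPKM. Lysosomal cathepsin D, Ctsd, reached 883 ± 25.1 FPKM, the small chaperone Cryab 854 ± 25.8, the collagen-binding glycoprotein Sparc 848 ± 25.9 and the collagen chaperone Serpinh1 639 ± 25.3. Carboxypeptidase E, Cpe, which trims peptide hormones, stood at 829 ± 38.0 FPKM. The plot of the 30 highest genes shows each library.

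**Figure D1:**
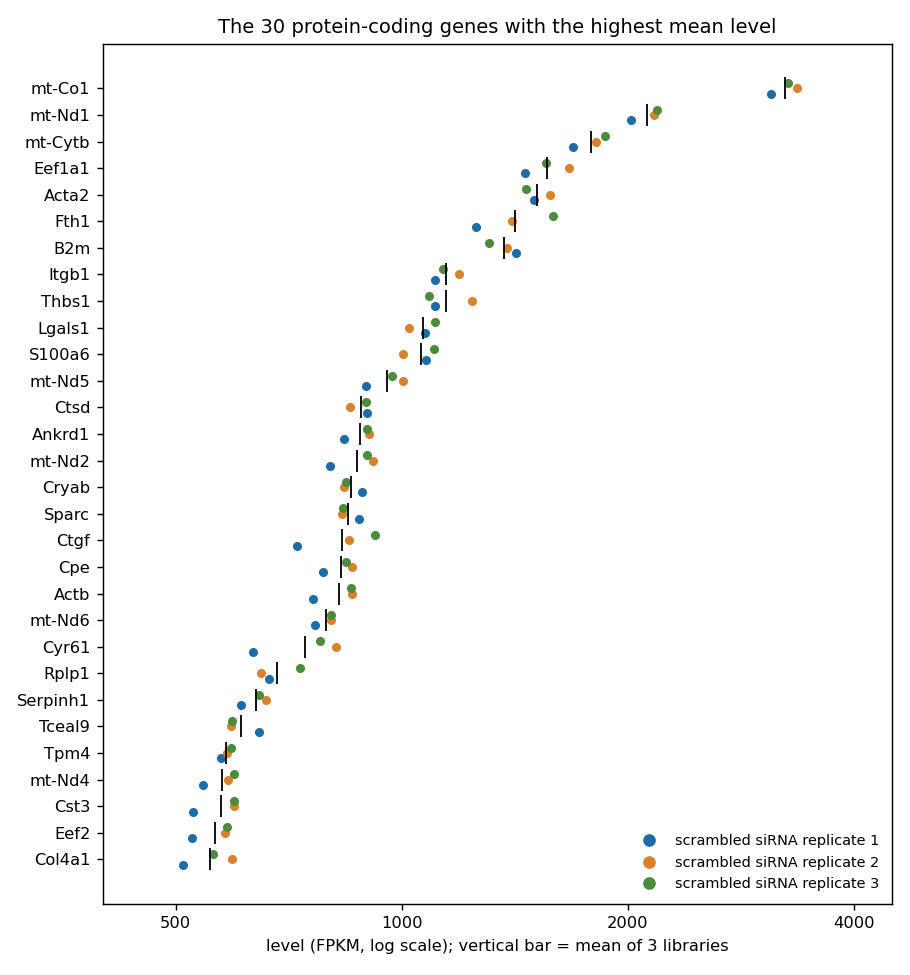
Levels of the 30 protein-coding genes with the highest mean in the scrambled siRNA libraries (FPKM, log axis); each point is 1 library and the vertical bar is the mean of 3. The highest gene, mt-Co1, stood at 3099, 3354 and 3272 FPKM, and the points of each gene lie close together compared with the range between genes.

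The podocyte label was checked against 4 lists of podocyte genes, 94 in all. Of these, 68 reached 1 FPKM (72.3%, against 48.1% of all protein-coding genes, the share to set beside each such count below). The lists were not limited to genes restricted to podocytes, and they also hold widely expressed genes such as Vim, Cfl1 and Myh9. This share alone therefore does not identify the cell. The given markers, Synpo, Podxl, Acta2, Thbs1 and Lrp2, were chosen with earlier results of these data known. All reached 1 FPKM, which is therefore no check of the label. Of these markers, Synpo and Podxl stand in the podocyte lists, Acta2 in the smooth muscle list and Lrp2 in the proximal tubule list. Synaptopodin, Synpo, an actin-associated protein of foot processes, was read at 68.6, 79.1 and 75.5 FPKM. Podocalyxin, Podxl, the charged sialomucin of the podocyte surface, was read at 8.76, 8.99 and 8.39 FPKM. Several defining genes of the slit diaphragm and of podocyte identity were below the rule. Nephrin, Nphs1, stood at 0.268, 0.197 and 0.231 FPKM on 96 reads in all. Wt1, the transcription factor most used to identify podocytes, stood at 0.527, 0.406 and 0.579 FPKM, below the rule in every library. Tcf21 had no read in any library, where 3 reads would give at most 0.0617 FPKM. In bulk RNA such as this, fewer cells that express a gene and less RNA per cell cannot be told apart.

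The linkers and scaffolds around the slit diaphragm were better represented than its core, with 18 of 26 genes of this list at 1 FPKM or more. The membrane-actin linker ezrin, Ezr, stood at 329 ± 32.6 FPKM, the matrix receptor dystroglycan, Dag1, at 151 ± 10.8 and the giant cadherin Fat1 at 144 ± 7.96. The adaptor Cd2ap, which binds nephrin and actin, stood at 55.3 ± 2.95 FPKM and the polarity kinase Prkci at 66.1 ± 3.96. The nephrin relatives split. Kirrel stood at 42.1 ± 2.05 FPKM, Kirrel3 at 1.30 ± 0.0874 and Kirrel2 at 0.114 ± 0.0303.

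Of 15 podocyte transcription factors, 10 reached 1 FPKM. The highest were Klf6 at 70.8 ± 6.89 FPKM, Pax2 at 32.9 ± 6.66, the Hippo pathway partner Tead1 at 28.5 ± 1.27 and Pax8, read at 19.4, 21.1 and 19.5. Pax2 is a factor of the early nephron that mature podocytes are known to silence, and it was read at 25.4, 38.2 and 35.0 FPKM. Foxc1 and Foxc2, factors that act in podocyte development, were low, at 4.78 ± 0.951 and 3.29 ± 0.809 FPKM. Lmx1b, the factor mutated in nail-patella syndrome, had 9 reads in all.

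The podocyte cytoskeleton list was the fullest of the 4, with 25 of 29 genes at 1 FPKM or more and 8 at 100 or more. The actin-severing protein cofilin, Cfl1, stood at 365 ± 5.02 FPKM, α-actinin 1, Actn1, at 234 ± 2.63 and the GTPase regulator Arhgdia at 225 ± 6.36. Non-muscle myosin Myh9 reached 155 ± 2.81 FPKM and the intermediate filament protein nestin, Nes, 152 ± 3.87. α-Actinin 4, Actn4, whose mutation causes a familial glomerulosclerosis, was read at 135, 149 and 146 FPKM. The formin Inf2 stood at 40.1 ± 1.93 FPKM, myosin Myo1e at 26.4 ± 0.522 and anillin, Anln, at 17.0 ± 0.953. The genes of this list at 1 FPKM or more had a median coefficient of variation (SD over mean) of 4.29%. For all genes described at 10 to 50 FPKM, the class of the list's median level of 30.3 FPKM, it was 5.05%.

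Among 24 podocyte-enriched secreted and surface genes, 15 reached 1 FPKM. Tissue plasminogen activator, Plat, was highest at 164 ± 10.6 FPKM, ahead of cathepsin L, Ctsl, at 68.3 ± 6.32 and the matrix ligand nephronectin, Npnt, at 67.7 ± 7.66. Vegfa, the growth factor with which podocytes supply the glomerular endothelium, was read at 17.7, 23.0 and 19.2 FPKM. Neprilysin, Mme, a surface peptidase, stood at 22.4 ± 1.73 FPKM and aminopeptidase A, Enpep, at 1.27 ± 0.283. Thsd7a, an antigen of membranous nephropathy, stood at 0.161 ± 0.0363 FPKM.

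Of 62 genes whose mutation is linked to inherited nephrotic syndrome, 50 reached 1 FPKM, with a median of 7.87 FPKM over all 62 against 0.734 over all protein-coding genes. Integrin α3, Itga3, was the highest at 270 ± 23.0 FPKM, followed by Arhgdia, Fat1, Actn4 and the basement membrane collagen chain Col4a5 at 134 ± 7.52. In 0 of the 50 was the highest library 1.5 times the lowest or more, against 4.39% of all genes described.

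Markers of 11 other cell types were present less completely, with 57 of 187 genes at 1 FPKM or more (30.5%). Of these genes, 4 stand in both a podocyte list and one of the 11. The part of widely expressed genes in each list was not measured, so the shares do not rank cell types. The summed level of these 187 genes was 6835, 7076 and 6874 FPKM in replicates 1, 2 and 3. Markers of the distal nephron and collecting duct were below 1 FPKM for all 18 genes, and uromodulin, Umod, had 0 reads, where 3 reads would give at most 0.0525 FPKM. Of 18 endothelial genes only Ehd3 reached 1 FPKM, at 11.8 ± 0.477. The endothelial junction proteins Pecam1 and Cdh5 stood at 0.108 ± 0.0501 and 0.148 ± 0.0820 FPKM.

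The proximal tubule list had 4 of 18 genes at 1 FPKM or more, and the first pair of them was high. Megalin, Lrp2, the endocytic receptor of the proximal tubule, was read at 56.3, 55.0 and 46.3 FPKM, lowest in replicate 3. The water channel Aqp1 was read at 140, 171 and 128 FPKM. Cubilin, Cubn, the partner receptor of megalin, stood at 1.18 ± 0.149 FPKM and alkaline phosphatase Alpl at 1.02 ± 0.148. The transporters that define proximal tubule cells were near 0: Slc34a1 stood at 0.0514 ± 0.0206 FPKM, Slc5a2 at 0.0940 ± 0.00994, Slc5a12 at 0.0554 ± 0.0418 and Slc22a6 at 0.00397 ± 0.00688. Lrp2 and Aqp1 were thus read without the transporters of the tubule, and whether other cells took part in their level was not tested.

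Genes of parietal cells, the epithelium that lines the capsule around the glomerulus, reached 1 FPKM for 9 of 15, Pax2 and Pax8 among them. The scaffold Akap12 stood at 169 ± 5.50 FPKM, the retinaldehyde dehydrogenase Aldh1a2 at 57.9 ± 3.69 and claudin 1, Cldn1, the best known parietal marker, at 15.5 ± 2.61. The keratins Krt8, Krt18 and Krt19 stood at 0.204 ± 0.0133, 0.0559 ± 0.0390 and 0.0261 ± 0.0451 FPKM.

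Smooth muscle contractile genes were the fullest of the 11 lists, with 15 of 18 at 1 FPKM or more and 8 at 100 or more. Tropomyosin 1, Tpm1, stood at 477 ± 22.7 FPKM, filamin A, Flna, at 323 ± 10.8, caldesmon, Cald1, at 261 ± 9.38, calponin 2, Cnn2, at 182 ± 20.7 and the myosin light chain Myl9 at 144 ± 1.92. The markers of mature smooth muscle were far lower than Acta2. Transgelin, Tagln, stood at 6.99 ± 0.575 FPKM, calponin 1, Cnn1, at 3.35 ± 0.510 and smooth muscle myosin, Myh11, at 0.253 ± 0.124.

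The type I and type III collagens, the main fibrillar collagens of fibroblasts, were low here. Col1a1 stood at 2.54 ± 0.382 FPKM, Col3a1 at 0.243 ± 0.191 and Col1a2 at 0.202 ± 0.0916. Fibronectin, Fn1, by contrast stood at 526 ± 19.8 FPKM and the matrix glycoprotein Fbln2 at 226 ± 10.7, and 7 of the 18 genes of this list reached 1 FPKM. Of 17 mesangial and pericyte genes, 6 did so, led by the growth factor receptor Pdgfrb at 31.9 ± 1.29 FPKM, while Pdgfra and Itga8 stood at 0.0670 ± 0.0216 and 0.0196 ± 0.000106.

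Of 18 leukocyte genes, 6 reached 1 FPKM and 8 had no read. The pan-leukocyte marker Ptprc stood at 0.0262 ± 0.00943 FPKM and the macrophage marker Adgre1 had 1 read. Among other genes of this list, Cd14 and Cd68 stood at means of 10.1 and 5.76 FPKM and Itgam at 0.0286. Cd74, the invariant chain of class II molecules, was read at 88.7, 81.7 and 87.2 FPKM, and the class II chain H2-Eb1 at 28.8, 30.3 and 35.6. The class II chains H2-Ab1 and H2-Aa were lower, at means of 9.24 and 1.13 FPKM. Ciita, the master regulator of class II genes, stood at 0.0823 FPKM. H2-Eb1, H2-Ab1, H2-Aa and Ciita were chosen after their values were seen. The colony-stimulating factor receptor Csf1r stood at 4.25 ± 0.150 FPKM and its ligand Csf1 at 295 ± 11.9.

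The paired neutrophil alarmins S100a8 and S100a9 separated the libraries. S100a9 had 0, 63 and 84 reads in replicates 1, 2 and 3, or 0, 5.83 and 7.70 FPKM. Its partner S100a8 was read at 0.830, 4.11 and 4.82 FPKM. Both were low in replicate 1 and present in the other libraries at similar levels.

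**Figure D2:**
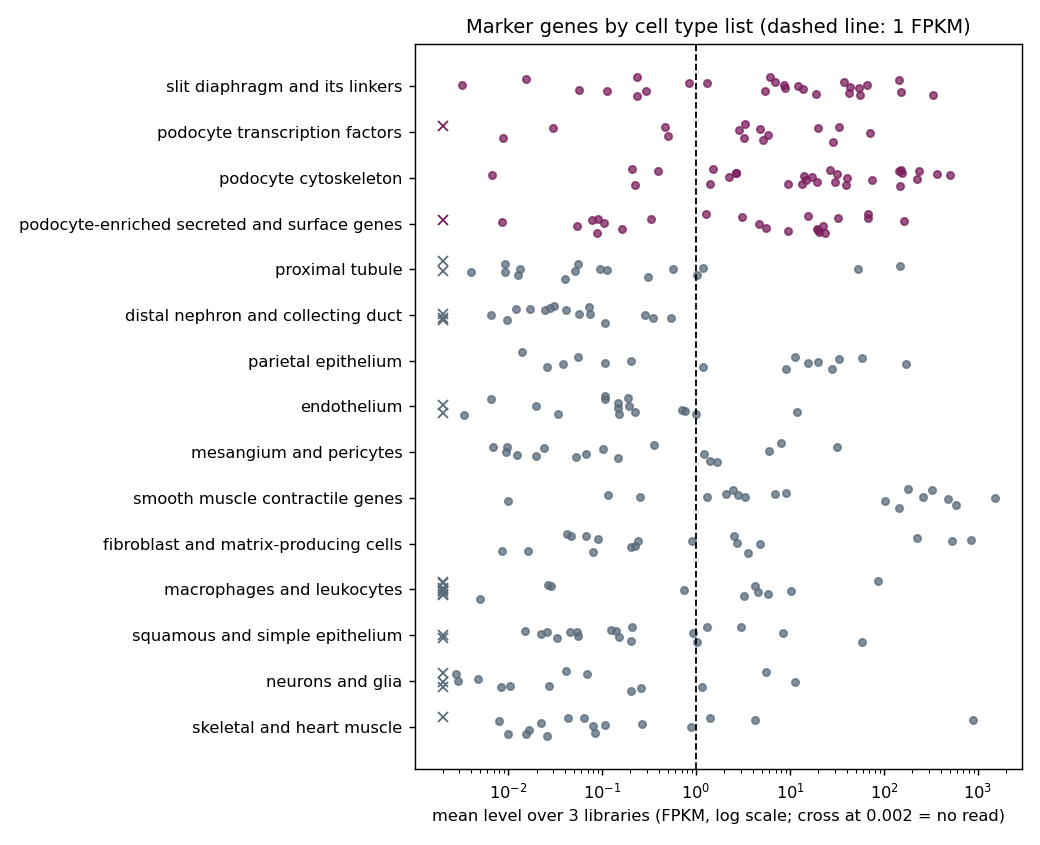
Mean level over the 3 scrambled siRNA libraries of each gene of 4 podocyte lists and 11 lists of other cell types (FPKM, log axis; the dashed line is 1 FPKM and a cross marks a gene with no read). Podocyte cytoskeleton genes lie mostly right of the line, all 18 distal nephron genes lie left of it, and the slit diaphragm and transcription factor lists spread across both sides.

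Matrix genes were described in 3 lists. Of 29 matricellular and secreted matrix genes, 18 reached 1 FPKM (62.1%), and of 20 genes of interstitial collagens and their enzymes, 16 did (80%). After Serpinh1, the highest of the latter were the fibrillar type V chain Col5a2 at 161 ± 2.26 FPKM and the prolyl hydroxylase P4ha1 at 137 ± 5.90. Of 23 basement membrane genes, 18 reached 1 FPKM, with a median of 43.4 FPKM over all 23. The chains Col4a1 and Col4a2, which form the widespread type IV collagen network, stood at 555 ± 42.0 and 464 ± 41.0 FPKM. The chains of the mature glomerular network were lower, Col4a5 at 134 ± 7.52 FPKM, Col4a4 at 13.8 ± 0.448 and Col4a3 at 7.20 ± 0.470. The laminin chains of the mature membrane, Lama5 and Lamb2, stood at 59.5 ± 5.45 and 31.4 ± 0.415 FPKM, and the fetal chain Lamb1 at 117 ± 4.13. Col4a3, Col4a4, Lama5 and Lamb2 were chosen after their values were seen. In this list 14 of 18 genes were highest in replicate 2, against 35.6% of all genes described, with a median difference of 0.13 (log2) from the mean of the other libraries.

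Integrins reached 1 FPKM for 11 of 20. After Itgb1 and Itga3, which pair as the laminin receptor of podocytes, came Itgb5 at 79.9 ± 5.51 FPKM, Itga5 at 47.5 ± 1.78 and Itgav at 39.6 ± 0.929. All 26 genes of the cytoplasmic actin machinery reached 10 FPKM, with a median of 115 FPKM, led after Actb by thymosin β4, Tmsb4x, at 500 ± 26.4.

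The Hippo pathway carries mechanical signals from the cytoskeleton to the nucleus, where the coactivators YAP and TAZ bind TEAD factors. All 20 genes of this list reached 1 FPKM. Only 3 of the 20 reached 100 FPKM. These were the target genes Ankrd1, Ctgf and Cyr61, which were among the highest of the cell. Ankrd1, a muscle and stress-response ankyrin protein, was read at 839, 904 and 898 FPKM. The secreted matricellular protein Ctgf was read at 726, 851 and 920 FPKM, and its relative Cyr61 at 634, 817 and 778. All 3 were lowest in replicate 1, as were 14 of the 20 genes of the list, against 40.8% of all genes described. TAZ, encoded by Wwtr1, stood at 86.6 ± 3.92 FPKM. Yap1, chosen after its values were seen, stood at 19.5 ± 0.197 FPKM.

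The promoters of the Hippo targets Ankrd1 and Cyr61, and of Acta2 from the smooth muscle list, are shown because they carry the letters GGAATG, the core of the site that TEAD factors are known to bind. Each stretch ends 1 base before the RefSeq start of the gene (GRCm38.p6) and is written 5′ to 3′ on the gene's strand, with GGAATG or its complement on the other strand, CATTCC, in capitals. Ankrd1 (chr19:36119845-36120064, minus strand) has 2 matches, and Cyr61 (chr3:145649986-145650135, minus strand) and Acta2 (chr19:34255374-34255533, minus strand) have 1 each.
Ankrd1: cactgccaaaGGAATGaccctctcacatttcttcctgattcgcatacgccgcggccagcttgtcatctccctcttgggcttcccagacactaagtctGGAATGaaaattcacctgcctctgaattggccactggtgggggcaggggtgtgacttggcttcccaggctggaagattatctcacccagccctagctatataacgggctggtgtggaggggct
Cyr61: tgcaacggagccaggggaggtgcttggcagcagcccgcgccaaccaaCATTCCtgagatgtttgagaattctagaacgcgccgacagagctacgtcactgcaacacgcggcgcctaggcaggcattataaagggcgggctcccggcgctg
Acta2: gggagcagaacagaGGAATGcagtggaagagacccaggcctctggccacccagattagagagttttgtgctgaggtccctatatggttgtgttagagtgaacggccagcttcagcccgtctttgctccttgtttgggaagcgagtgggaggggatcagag

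GGAATG on either strand was found in 10 of 16 promoters of the Hippo list (62.5%) and in 7 of 13 of the smooth muscle list (53.8%). It was found in 11.6% of the 8470 promoters of genes described and in 13.2% of all 16881 promoters matched, each 300 bases long from 250 before to 50 after the start. A match is a description of the letters and does not show that a factor binds there. The start in RefSeq lay 37 bases from the deposited start of Acta2 and 4 or fewer from those of Ankrd1 and Cyr61.

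Promoter sequence also differed with level. The letters TATAAA, the core of the TATA box, occurred on either strand in 15 of the 72 promoters matched among the 100 highest genes (20.8%, exact 95% interval 12.2% to 32.0%). The share was 9.54% over the next 702 promoters by rank of level and 6.25% over the 7696 below them. Over all genes described it was 6.65%, against 19.5% of promoters of protein-coding genes below 1 FPKM. From 40 to 20 bases before the start, on the gene's strand, TATAAA was found in 5.56% of the 100 highest genes, 1.06% of all described and 4.53% of those below 1 FPKM. The GC box letters GGGCGG were found in 67.8% of the promoters described and in 28.0% of those below 1 FPKM. The median ratio of observed to expected CpG was 0.794 against 0.267. Expressed genes thus more often had CpG-rich promoters without TATAAA, and the very highest genes more often had TATAAA than other expressed genes. These intervals cover counting error only.

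Cell cycle genes were all present, 29 of 29 at 1 FPKM or more, in cells that were labelled as differentiated. Cyclins D1 and D2, Ccnd1 and Ccnd2, drive entry into the cycle. Ccnd1 was read at 243, 270 and 271 FPKM, and Ccnd2 stood at 184 ± 6.23. Their kinase Cdk4 stood at 74.1 ± 2.85 FPKM, the nucleotide reductase subunit Rrm2 at 56.9 ± 5.16 and the replication clamp Pcna at 40.9 ± 2.28. The proliferation marker Mki67, chosen after its values were seen, was read at 12.1, 13.9 and 12.1 FPKM. Inhibitors of the cycle and targets of p53 stood beside them, with 15 of 16 at 1 FPKM or more. The inhibitor p21, Cdkn1a, was read at 363, 423 and 451 FPKM. Cyclin G1, Ccng1, stood at 327 ± 5.40 FPKM, Phlda3, a brake on Akt, at 215 ± 26.0, the p53 ligase Mdm2 at 125 ± 3.09 and the INK4 and ARF locus Cdkn2a at 107 ± 17.1. Gdf15, a stress cytokine, was read at 80.5, 148 and 141 FPKM and so was much lower in replicate 1 than in the others.

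Of 41 growth factor ligands, 25 reached 1 FPKM. Platelet-derived growth factor B, Pdgfb, stood at 71.2 ± 7.80 FPKM, beside its receptor Pdgfrb. The EGF receptor ligand Hbegf stood at 63.4 ± 5.34 FPKM and the receptor Egfr at 65.2 ± 4.31. Among 38 growth factor receptors, 29 reached 1 FPKM, led by Axl at 115 ± 8.16 and the ephrin receptor Epha2 at 99.4, 112 and 114. Of 36 Wnt and Notch genes, 26 did so. β-Catenin, Ctnnb1, stood at 115 ± 2.59 FPKM, the Notch ligand Jag1 at 72.4 ± 2.47 and the ligands Wnt7a and Wnt9a at 45.3 ± 2.51 and 41.9 ± 3.24.

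Of 30 genes of renin-angiotensin, endothelin and steroid signalling, 13 reached 1 FPKM (43.3%), near the 48.1% of all protein-coding genes. Both genes of the type 1 angiotensin receptor, Agtr1a and Agtr1b, had 0 reads, where 3 reads would give at most 0.0520 and 0.0675 FPKM. Endothelin 1, Edn1, was read at 36.1, 47.4 and 46.3 FPKM, while its receptors Ednra and Ednrb stood at 0.0409 and 0.00374. Agtr1a, Agtr1b, Ednra and Ednrb were chosen after their values were seen. The glucocorticoid receptor Nr3c1 stood at 19.1 ± 0.397 FPKM. Of 20 calcium entry channels, 11 reached 1 FPKM. The stretch-activated channel Piezo1 stood at 77.6 ± 8.72 FPKM and Trpv4 at 32.6 ± 2.74, while Trpc6, whose mutation causes a familial glomerulosclerosis, had 1 read.

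Stress and secretion genes were broadly present. All 17 secretory pathway chaperones reached 10 FPKM, with calreticulin, Calr, at 476 ± 10.3 and the disulfide isomerase Pdia3 at 326 ± 8.06. All 24 antioxidant and iron genes reached 1 FPKM, and 19 of them were highest in replicate 3, against 29.8% of all genes described. Ferritin light chain, Ftl1, was read at 357, 412 and 507 FPKM, in the same order as Fth1. Haem oxygenase 1, Hmox1, which degrades haem, was read at 172, 194 and 206 FPKM. Chemokine and cytokine genes reached 1 FPKM for 18 of 26, led after Csf1 by the monocyte chemokine Ccl2 at 152, 120 and 133 FPKM.

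Reference genes used for RT-qPCR were all present but differed widely in level. Beside Eef1a1, Hprt stood at 98.8 ± 3.05 FPKM, Rplp0 at 215 ± 11.1, Tbp at 2.30 ± 0.178 and Gapdh at 2.33 ± 0.0980. Gapdh encodes an abundant glycolytic enzyme, and 27.2% of the 50-base words of its longest transcript also occur in other genes, 213 in number. Reads that match several genes may have been set aside or split in the authors' counting, so levels of such genes are uncertain. The same holds for Eef1a1, with 59.2% of its words shared, and for Rplp1, with 60.0%. The 20 reference genes had a median coefficient of variation of 4.69% over the libraries, against 6.30% for all genes described and 4.98% for those at 50 to 100 FPKM, the class of their median level of 52.8 FPKM. The smallest spread among genes at 5 FPKM or more with 100 reads per library belonged to Pitpnb, a phosphatidylinositol transfer protein, at 27.97, 27.97 and 27.96 FPKM. Tns1, Rnf181, Ewsr1 and Serpinb6b followed, with coefficients of 0.0537% to 0.156%.

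The 13 genes of mitochondrial DNA, a list added after the values were seen, fell into a high and a low set. Those 7 among the 30 highest genes stood between 576 and 3242 FPKM and were lowest in replicate 1. The other 6, mt-Co2, mt-Atp6, mt-Co3, mt-Nd4l, mt-Nd3 and mt-Atp8, stood between 3.21 and 37.3 FPKM and were highest in replicate 1. The oxidase subunit mt-Co2 was read at 59.2, 24.0 and 28.9 FPKM and the ATP synthase subunit mt-Atp6 at 30.6, 10.1 and 12.99. Of the words of the first 5 of these low genes, 98.0% to 100% occur in other genes, and of those of mt-Atp8 0%. In the high set the share was 51.1% for mt-Co1, 62.2% for mt-Nd4 and 0% to 8.19% for the other 5. The part of shared sequence in these values was not tested.

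The 3 libraries were close to each other, and replicate 1 stood somewhat apart. Pearson's r over log2(FPKM + 0.5) of the 10562 genes was 0.992 between replicates 1 and 2, 0.992 between 1 and 3 and 0.996 between 2 and 3. The SD of the log2 difference was 0.21 for both pairs with replicate 1 and 0.15 for replicates 2 and 3. The median coefficient of variation was 6.30% (quartiles 3.76% and 10.1%), and it was 4.17% without replicate 1. In 464 genes (4.39%) the highest library was 1.5 times the lowest or more, and in 89 it was 2 times or more. Without replicate 1, 148 genes were 1.5 times apart, without replicate 2, 279, and without replicate 3, 253. Replicate 1 was the library farthest from the middle value in 44.1% of genes, replicate 2 in 28.4% and replicate 3 in 27.5%.

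The spread exceeded counting error at every level. The chi-square of the reads over the libraries per degree of freedom had a median of 3.13. Under counting alone the median of this measure would be 0.693 with 3 libraries. Without replicate 1 it was 1.42, where counting alone would give 0.455 with 2 libraries. From 1 to 2 FPKM the median coefficient of variation was 11.9%, and the counting error of the reads was 8.66%. From 10 to 50 FPKM these values were 5.05% and 2.45%, and at 500 FPKM or more 4.59% and 0.525%. As a multiple of counting error, the spread was thus larger for high genes than for low ones.

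**Figure D3:**
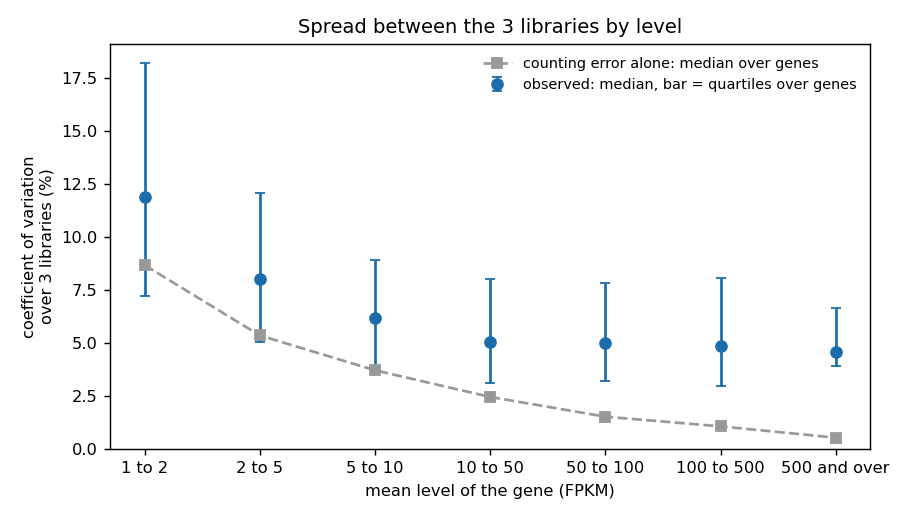
Coefficient of variation over the 3 libraries against mean level (FPKM classes). Circles are medians with quartiles over genes, and squares are medians over genes of the counting error of the mean reads. Under counting alone, the median coefficient from 3 libraries would lie below the squares. The observed median goes from 11.9% at 1 to 2 FPKM to 4.59% at 500 FPKM or more, while the counting value goes from 8.66% to 0.525%.

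Among genes with a mean of 100 reads or more per library, the 3 widest spreads belonged to immediate early genes, transcription factors and regulators that cells switch on within minutes of a stimulus. Genes on fewer reads, such as S100a8, S100a9 and mt-Atp8, had wider ones. Fos, a subunit of the factor AP-1, was read at 7.94, 29.7 and 33.3 FPKM, a 4.20-fold range. Ier2 was read at 20.5, 64.6 and 72.5 FPKM and Egr1, a zinc finger factor, at 17.8, 57.5 and 63.0. In each of these genes replicate 1 was far below the other libraries, which lay near each other. Of 20 immediate early genes 17 reached 1 FPKM, and all 17 were lowest in replicate 1, against 40.8% of all genes described. The median difference of replicate 1 from the mean of the others was -0.58 on the log2(FPKM + 0.5) scale, against -0.01 over all genes described. In 11 of the 17 the highest library was 1.5 times the lowest or more, against 4.39% of all genes described. Members of the list differed in size: Junb was read at 49.2, 89.0 and 92.9 FPKM and Dusp1, a phosphatase of MAP kinases, at 88.6, 140 and 141, while Klf6 was read at 63.1, 73.2 and 76.3.

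Other genes outside this list shared the pattern of a low replicate 1. All those named here had a GC content of 55.9% to 68.4%, against a median of 49.6% for all genes described. The libraries differed with GC content, as described below. Cebpb, a factor of inflammatory genes, was read at 7.56, 23.4 and 23.1 FPKM and Scand1, a small nuclear protein, at 20.1, 51.6 and 52.3. Dusp2, a nuclear phosphatase, was read at 1.58, 3.33 and 5.42 FPKM and Gnas, the stimulatory G protein α subunit, at 1.40, 4.19 and 4.46. Boc and Galnt2 were also among the 10 widest spreads at this minimum of reads, each lowest in replicate 1 and on 507 and 336 reads in all. Of the words of Galnt2, 93.7% also occur in another gene.

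Interferon response genes, which cells induce through STAT and IRF factors, were spread in another direction. Of 29 genes on this list 25 reached 1 FPKM. They were highest in replicate 2 for 20 of the 25 (35.6% of all genes described) and lowest in replicate 3 for 19 (32.2%). The median difference from the mean of the other libraries was 0.48 (log2) in replicate 2 and -0.39 in replicate 3. In 14 of the 25 the highest library was 1.5 times the lowest or more (4.39% of all genes described). Bst2, a tether of budding viruses, was read at 102, 178 and 97.3 FPKM and the ubiquitin-like Isg15 at 73.7, 120 and 60.5. Ifit1, a sensor of viral RNA ends, was read at 24.4, 45.6 and 21.7 FPKM and Irf7, a factor of this response, at 4.82, 8.83 and 4.09. The receptor gene Ifngr1 was even, at 77.1, 80.8 and 83.3 FPKM. Oas2 and Oas3, which make the second messenger that activates RNase L, stood at 3.52, 5.84 and 2.32 and at 7.07, 12.6 and 6.12 FPKM.

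The promoters of 3 of these genes are shown because they hold the letters GAAA-NN-GAAA (N is any base), the core of the element that IRF and STAT complexes bind in interferon-induced genes. They are written as above, with the letters or their complement on the other strand in capitals, where overlapping matches run together. Isg15 (chr4:156200819-156200938, minus strand) has 3 matches, Ifit1 (chr19:34640769-34640888, plus strand) 2 and Bst2 (chr8:71537473-71537632, minus strand) 2.
Isg15: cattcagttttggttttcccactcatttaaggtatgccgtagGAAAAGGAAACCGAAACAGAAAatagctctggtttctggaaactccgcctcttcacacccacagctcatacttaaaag
Ifit1: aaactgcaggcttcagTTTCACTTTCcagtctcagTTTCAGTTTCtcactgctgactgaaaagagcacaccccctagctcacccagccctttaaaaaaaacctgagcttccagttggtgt
Bst2: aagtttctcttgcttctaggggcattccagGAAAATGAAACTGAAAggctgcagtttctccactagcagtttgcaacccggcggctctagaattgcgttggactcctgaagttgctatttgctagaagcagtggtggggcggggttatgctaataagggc

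These letters were found on either strand in 12 of 23 promoters matched from the interferon list (52.2%), against 2.96% of the genes described and 3.45% of all promoters. The stretches of 120 and 160 bases read for Ifit3 and Irf7 held no match, which says only that these letters are not in those windows. The summed level of the 29 interferon genes was 737, 996 and 688 FPKM in replicates 1, 2 and 3. The class I heavy chain genes H2-K1 and H2-D1 were also highest in replicate 2 but lowest in replicate 1, at 100, 122 and 107 FPKM and at 93.7, 106 and 97.8. B2m, with 1 match in the 160 bases before its start, was highest in replicate 1.

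**Figure D4:**
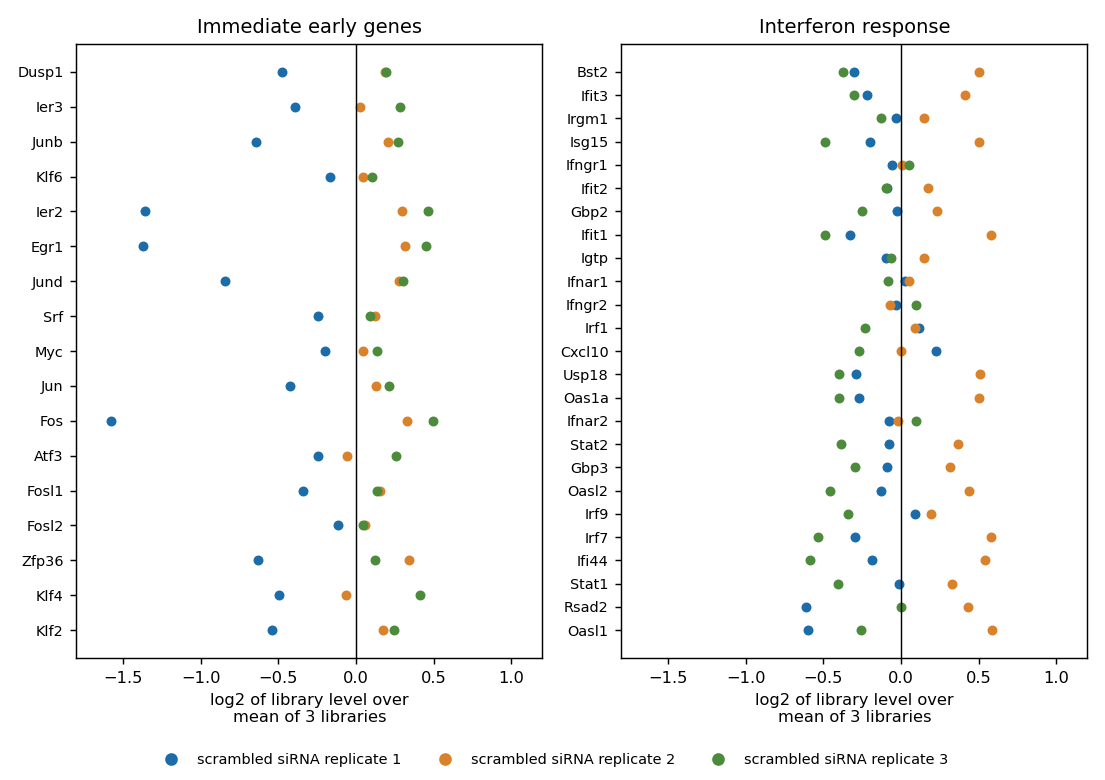
Log2 of the level in each library over the mean of the 3 for the immediate early genes (left) and the interferon response genes (right) at 1 FPKM or more. Replicate 1 is the lowest point of all 17 immediate early genes, and replicate 2 is the highest point of 20 of the 25 interferon genes.

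Genes of translation differed by smaller amounts. Of 80 cytosolic ribosomal protein genes, a list added after the values were seen, 76 reached 1 FPKM. They were lowest in replicate 2 for 51 of the 76, against 27.0% of all genes described, with a median difference of -0.11 (log2). Rplp1 was read at 666, 650 and 732 FPKM. Zinc finger genes with Zfp symbols, also added later, reached 1 FPKM for 238 of 367. They were highest in replicate 1 for 138 (34.5% of all genes described) and lowest in replicate 3 for 140.

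The differences between libraries went in part with the base composition of the genes. The genes were split into 5 classes of equal size by the GC content of their longest GENCODE M21 transcript, which was found for 10559 of 10562. In the class of lowest GC, 21.8% to 43.8%, replicate 1 was the lowest library for 16.1% of genes. This share was 27.1%, 36.6% and 50% in the next classes and 74.2% in the highest, 55.5% to 71.3%. The median log2 difference of replicate 1 from the others went from 0.07 in the lowest class to -0.15 in the highest. Spearman's rank correlation between GC content and this difference was -0.48 for replicate 1, 0.27 for replicate 2 and 0.36 for replicate 3. It was taken across the 10559 genes, which share the same 3 libraries and are not independent. The differences of each gene over the libraries cancel out by construction, so these correlations are not separate results.

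These values bear on the lists above in different degrees. The immediate early genes had a median GC of 54.6%, against 49.6% for all genes described. Taken from the median of genes in the same class of GC, their difference in replicate 1 was -0.50, against -0.58 before. The interferon genes had a median GC of 49.5%, and their difference in replicate 2 was 0.49 by the same measure, against 0.48. The Zfp genes had a median GC of 45.1%, and their difference in replicate 3 went from -0.09 to -0.08. Basement membrane genes had a median GC of 55.1%, and their difference in replicate 2 went from 0.13 to 0.07 and that in replicate 1 from -0.11 to -0.04. Cebpb, Scand1, Dusp2, Gnas, Boc and Galnt2, named above for a low replicate 1, were all in the highest class of GC. Replicate 1 was the lowest library for 74.2% of that class, with a median difference of -0.15. In the named genes this difference was -0.91 (Boc) to -1.56 (Cebpb), and the part of GC in it was not tested.

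**Figure D5:**
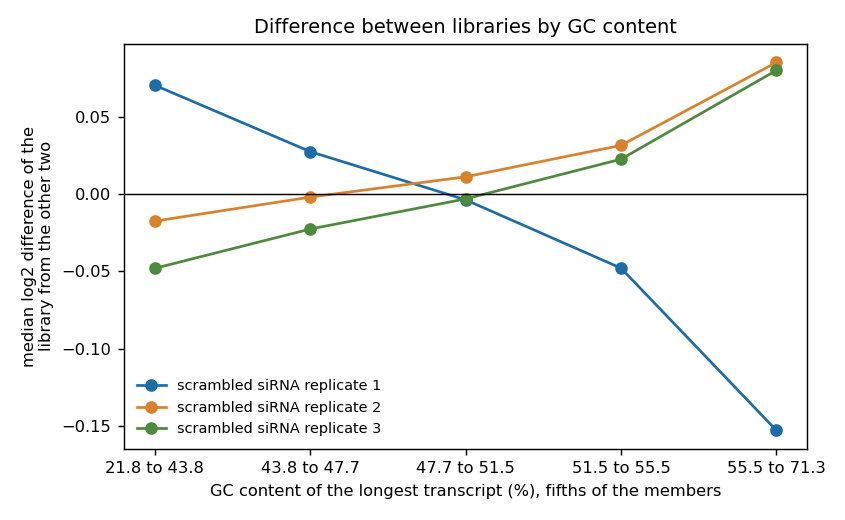
Median log2 difference of each scrambled siRNA library from the mean of the other libraries, by 5 classes of GC content (2111 or 2112 genes each). The line of replicate 1 goes from 0.07 in the lowest class to -0.15 in the highest. The lines of replicates 2 and 3 run the opposite way. The differences of each gene cancel out by construction, so the opposite trend of replicates 2 and 3 together is no separate result.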

How the data were processed

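TRIzol RNA was sequenced after a standard Illumina preparation, per the labels' protocols. The build named is mm10, per the submitters' processing notes. Not given in the sources used here are the aligner, counter, annotation release and use of strand. Per gene and library, the deposited table gives FPKM beside the gene length, per the file headers; the authors had scaled the values to library depth. No per-sample column went unmapped (0).

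Multiplied by gene length and divided by its smallest nonzero value per library, FPKM gave whole numbers for 100% of values above 0 (tolerance 1e-06), taken as reads per gene. Means, SD, coefficients of variation and differences of log2(FPKM + 0.5) were computed in Python 3.11.15 with pandas 2.3.3 and scipy 1.17.1, over 3 libraries and with no test between groups; the code was tested on simulated data. Transcripts were from GENCODE M21 and promoters from RefSeq (GRCm38.p6), matched by symbol for 8470 of the 10562 genes. Shared 50-base words were counted between longest transcripts and all other transcripts of the annotation. Read-based limits cover counting error only.

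The genes, the 42 lists and the rules were chosen with earlier results of these data known. Named genes were the 30 highest, the given markers, up to 6 highest of each list, the first 6 of each of 15 cell type lists, the widest and narrowest spreads, the edge of the rule and reference genes; others are marked. Some items are not reported here. Ribosomal, mitochondrial and Zfp lists were added after seeing the values. Alternatives varied the minimum, pseudocount, scaling, promoter window and replicates left out.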

Additional observations from a re-analysis of the deposited data

How the results depend on the processing

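The number of genes at 1 FPKM or more stayed within 1.5 times of 10562 under every alternative run, from 9481 (minimum of 2 FPKM) to 12043 (FPKM rescaled to TPM), and was 10555 to 10574 with a replicate left out. Podocyte markers at 1 FPKM or more numbered 64 to 74 and those of other cell types 47 to 69. The share of the 100 highest genes was 19.1% with all genes of the table in the denominator and 20.6% without mitochondrial DNA, against 23.4%; it was 23.3% to 23.5% with a replicate left out. The median coefficient of variation was 10.7% over all protein-coding genes above 0 and 4.17% to 5.70% with a replicate left out, the lowest without replicate 1. Genes 1.5 times apart numbered 143 at 5 FPKM or more, 288 as a ratio of FPKM + 0.5, and 148 to 279 with a replicate left out. The share of genes farthest in replicate 1 was 46.2% at 5 FPKM or more, 45.7% in TPM, 45.9% in reads scaled to the library total and 51.1% among genes 1.5 times apart. The median chi-square per degree of freedom was 3.98 at 5 FPKM or more and 1.42 to 2.61 with a replicate left out. TATAAA in the 100 highest genes was 5.56% in the window from 40 to 20 bases before the start. In all, 16 alternative values differed from the reported one by more than its set margin and 45 did not. Only the differences of the immediate early and interferon lists could change sign, and none did. Alternatives for the immediate early and interferon lists, chosen after seeing the data, gave -0.50 to -0.58 and 0.46 to 0.51. With fewer genes or libraries a count or spread is smaller by construction; for the other changes the cause was not tested. Depth limits genes near 1 FPKM, where the median counting error of the reads was 8.66%. No paired analysis was possible because only 1 group was used and no result comes from a test.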
